A study of Homo sapiens with 24 samples.

Results

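MGMT, 1 gene of the 59385 rows in the deposited count table, was described in 24 RNA-seq libraries of A549 and H1299, which are established human cell lines of non-small cell lung cancer. The gene was picked from these data because its counts were higher in K3Q than in WT and K3R in H1299 and not in A549. Those differences are therefore given as description, without a test. Every culture carried a lentivirus, stably introduced, for a FLAG-tagged construct: an empty vector (Ctr), wild-type SIRT6 (WT), or mutant SIRT6 named K3R or K3Q, which the labels do not describe further. Cells were kept in RPMI1640 with serum and received no other agent per the labels, which do not say whether a line was a pool or a clone of transduced cells. Each line and construct had 3 libraries, written here as biological replicate and batch: 1-1, 1-2 and 2-2. The labels do not say whether 1-1 and 1-2 came from separate cultures, so the spread between libraries may be partly technical.

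MGMT encodes O6-methylguanine-DNA methyltransferase, a repair enzyme that takes an alkyl group from the O6 position of guanine onto a cysteine of its own active site. Each protein molecule does this once and is then degraded, so the repair capacity of a cell follows the amount of enzyme it makes. The enzyme protects cells from alkylating drugs such as temozolomide, and methylation of its promoter is a well-known way in which tumours silence it. SIRT6 is an NAD-dependent deacylase of chromatin with known roles in DNA repair and in the repression of transcription.

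In GENCODE 29 on GRCh38, MGMT lies on the plus strand of chromosome 10 from 129467184 to 129768007 and spans 300824 bases, with 4 annotated transcripts. The protein-coding transcript has 5 exons and 1759 bases. An antisense gene, AL157832.2 (129693722 to 129702117, minus strand), lies within that span, and no row of the table carries its symbol. The strand setting of the counting is not given in the sources used here, so any reads of it that overlap MGMT exons could not be told apart.

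The promoter of MGMT is shown because the promoter factors counted below are reported to act there. The DNA methylation genes counted below are a general list, not tied to this promoter. The 193 bases before both the RefSeq and the GENCODE start, chr10:129466991-129467183 on the plus strand of GRCh38.p14, were taken from RefSeq. Capitals mark the GC box GGGCGG and its reverse complement CCGCCC, the sequence that Sp1-family factors bind.
MGMT promoter: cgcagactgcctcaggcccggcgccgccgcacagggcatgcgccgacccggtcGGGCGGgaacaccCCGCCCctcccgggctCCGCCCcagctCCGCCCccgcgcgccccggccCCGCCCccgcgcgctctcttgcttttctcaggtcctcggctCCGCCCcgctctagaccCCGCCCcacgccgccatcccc
The window held 7 GC boxes, 1 as GGGCGG and 6 as CCGCCC, none of which overlapped another. Of 35115 windows at the same distance from a RefSeq start, 33.6% held at least 1 GC box and 0.376% held as many as MGMT. It held 28 CpG dinucleotides against a median of 7, and 4.7% of the windows held as many. These are properties of the letters only: neither methylation nor factor binding was measured in these libraries.

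Library totals ran from 16434492 to 19412274 counts in A549 and from 14943189 to 22856407 in H1299. SIRT6 reads, which do not separate the introduced gene from the cells' own, were high in every library labelled for WT, K3R or K3Q, at 1460 to 3454 CPM (counts scaled to library size, defined below) in A549 and 2307 to 14062 CPM in H1299, against at most 42.6 CPM with the empty vector. Libraries 1-2 and 2-2 of A549 K3Q were closer to each other than any other pair: their chi-square divided by its degrees of freedom was 2.51, above sampling noise, against 14.7 to 64.7 in the 23 other pairs within a group. They were kept as separate libraries, and values with them summed are given below. The aldo-keto reductases and aldehyde dehydrogenases that mark A549 summed to 10092 to 20368 CPM in A549 and to 1.32 to 10.1 CPM in H1299. The keratins KRT7, KRT8, KRT18 and KRT19 summed to at least 7758 CPM in A549 and to 608 to 1054 CPM in H1299, where KRT19 was at 0 in 8 of 12 libraries. Leukocyte markers summed to at most 1.52 CPM and endothelial markers to at most 1.11 CPM in any library. Fibroblast markers summed to 8.52 to 23.96 CPM in A549 and to 1.74 to 10.2 CPM in H1299, most of it COL1A1.

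In H1299, MGMT stood near 16 CPM with the empty vector and with K3Q, and near 6 CPM with wild-type SIRT6 and with K3R. CPM are counts divided by the library total after TMM normalisation over the 24 libraries, multiplied to a fixed library size. The empty-vector libraries 1-1, 1-2 and 2-2 of H1299 held 18.3, 12.2 and 17.2 CPM (433, 221 and 326 reads), with a mean of 15.9 ± 3.27 (SD, n = 3). In bulk RNA, fewer cells with the transcript and less transcript per cell cannot be told apart. The WT libraries held 5.78, 4.42 and 6.31 CPM (133, 85 and 114 reads), with a mean of 5.50 ± 0.97 (SD, n = 3). No WT library came within the range of the empty vector.

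The K3R libraries of H1299 held 4.94, 6.18 and 6.43 CPM (115, 131 and 111 reads), with a mean of 5.85 ± 0.80 (SD, n = 3), and their range overlapped that of WT. The K3Q libraries held 16.8, 19.5 and 12.9 CPM (375, 295 and 256 reads), with a mean of 16.4 ± 3.29 (SD, n = 3), and their range overlapped that of the empty vector. The H1299 libraries thus fell into a high set, Ctr and K3Q, from 12.2 to 19.5 CPM, and a low set, WT and K3R, from 4.42 to 6.43 CPM, with no overlap. Among 16262 genes tested in H1299, 1.21% had all Ctr and K3Q libraries above all WT and K3R libraries, and 2.85% had all K3Q libraries above all WT and K3R libraries. The choice of MGMT used that contrast, so nothing is read from these shares. Low marker sums moved with the groups: fibroblast markers in H1299 summed to 1.74 to 5.59 CPM in Ctr, 4.94 to 10.2 in WT, 3.35 to 6.10 in K3R and 1.98 to 4.66 in K3Q. Endothelial markers summed to 0.11 to 0.30, 0.68 to 1.11, 0.42 to 0.98 and 0.18 to 0.66 CPM in the same order. WT thus lay above K3Q for both lists, and the part of this in the MGMT result was not tested.

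**Figure D1:**
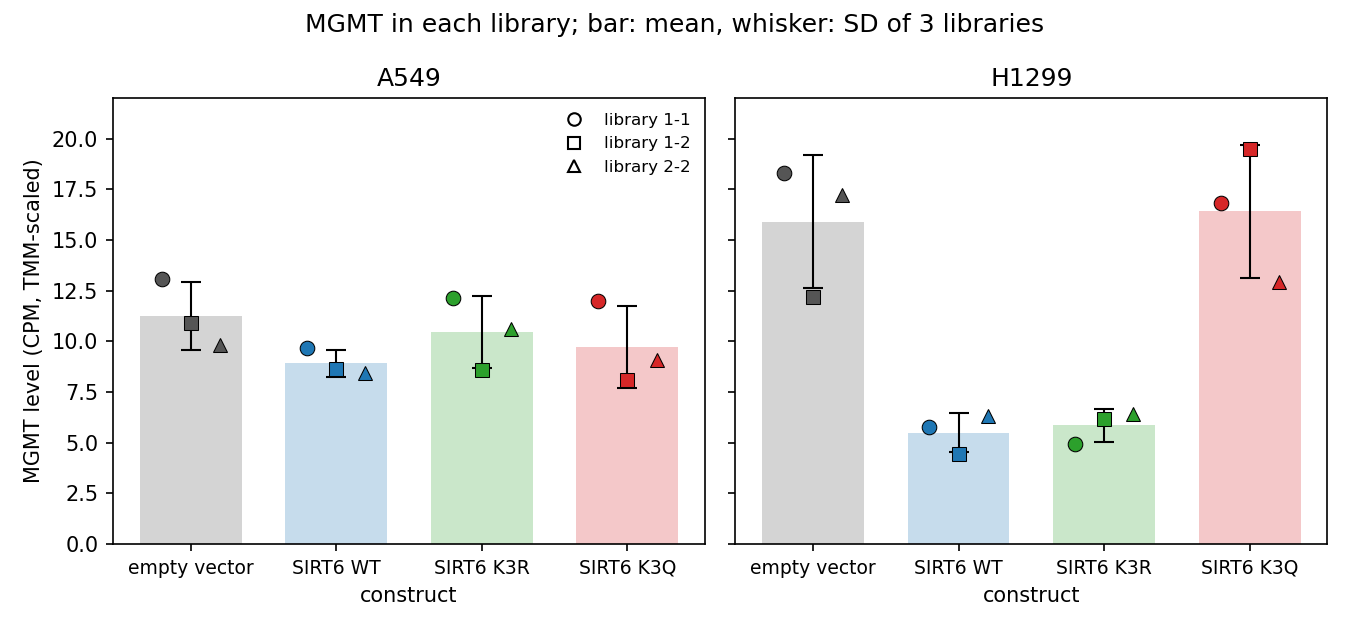
MGMT level in CPM (vertical axis) in each library, by construct, for A549 (left) and H1299 (right). Symbols are single libraries, bars are means and whiskers the SD of 3 libraries. In H1299 the WT and K3R libraries sit between 4.42 and 6.43 CPM, below every Ctr and K3Q library, while in A549 the K3R and K3Q ranges overlap those of Ctr and WT.

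The fit of construct and batch to the 12 H1299 libraries put MGMT at a log2 change of -1.55 ± 0.21 (SE) in WT and -1.46 ± 0.21 in K3R against the empty vector. K3Q stood at 0.06 ± 0.20 against the empty vector, with an interval (1.96 SE on each side) from -0.34 to 0.45. Against WT, K3Q was higher by 1.60 ± 0.21, or 3.04-fold, and against K3R by 1.52 ± 0.21, or 2.87-fold. No p is given for these 5 contrasts because the libraries that enter them chose the gene. The comparisons share libraries and are not independent of each other.

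The same direction held in each library number. K3Q was 2.91-fold above WT at 1-1, 4.4-fold at 1-2 and 2.05-fold at 2-2, and 3.41-fold, 3.15-fold and 2.01-fold above K3R. WT stood at 0.315, 0.363 and 0.367 of the empty-vector level in the 3 libraries, and K3R at 0.270, 0.508 and 0.374. K3Q against the empty vector had no common direction: it was lower at 1-1 (0.918-fold) and 2-2 (0.752-fold) and higher at 1-2 (1.60-fold). Within batch 2 alone, the log2 values were -1.47 for WT and -1.25 for K3R against Ctr, and 1.61 and 1.39 for K3Q against WT and K3R.

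In A549, MGMT lay between 8.11 and 13.1 CPM in all 12 libraries, and the mean of no construct was more than 1.26-fold below that of the empty vector. Of 16120 genes tested in A549, 0.13% had all Ctr and K3Q libraries above all WT and K3R libraries, and MGMT was not among them. The choice of MGMT required that K3Q not exceed WT and K3R in A549, so nothing is read from that. The empty-vector libraries 1-1, 1-2 and 2-2 held 13.1, 10.9 and 9.80 CPM (225, 167 and 163 reads), with a mean of 11.3 ± 1.67 (SD, n = 3). The WT libraries held 9.69, 8.64 and 8.44 CPM (159, 134 and 143 reads), with a mean of 8.92 ± 0.67 (SD, n = 3). The highest WT library was just under the lowest empty-vector library, so these ranges lay close without overlapping. WT stood at 0.740, 0.792 and 0.861 of the empty-vector level at 1-1, 1-2 and 2-2.

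The K3R libraries of A549 held 12.1, 8.60 and 10.6 CPM (196, 140 and 165 reads), with a mean of 10.5 ± 1.77 (SD, n = 3). The K3Q libraries held 11.97, 8.11 and 9.08 CPM (218, 131 and 146 reads), with a mean of 9.72 ± 2.01 (SD, n = 3). The ranges of both mutants overlapped that of the empty vector and that of WT. In Ctr, WT, K3R and K3Q alike, library 1-1 held the highest value.

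Fitted log2 changes against the empty vector in A549 were -0.32 ± 0.14 (SE) for WT, -0.11 ± 0.13 for K3R and -0.21 ± 0.13 for K3Q. Their intervals ran from -0.59 to -0.06, from -0.37 to 0.16 and from -0.48 to 0.05, in that order. K3Q stood at 0.11 ± 0.14 against WT and at -0.10 ± 0.14 against K3R, with intervals from -0.15 to 0.38 and from -0.37 to 0.16. The difference between the lines in these contrasts was what chose the gene, so it was not tested. With the near-identical K3Q libraries summed, the A549 values were 0.13 and -0.08, and without library 2-2 they were 0.09 and -0.12.

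K3R and WT were both required to lie under K3Q in H1299 when MGMT was picked, so their difference is given without a test as well. In H1299, K3R against WT gave a log2 difference of 0.08 ± 0.22 (SE), with an interval from -0.35 to 0.51, and K3R was higher in 2 of 3 libraries. In A549 the difference was 0.22 ± 0.14, with an interval from -0.05 to 0.48, and K3R was again higher in 2 of 3 libraries. The intervals leave room for a difference in either line, so they do not show equal levels.

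The lines were compared in the empty-vector libraries, which the choice of MGMT did not use. MGMT was 1.45-fold higher in H1299 than in A549 (log2 0.54 ± 0.19 SE, adjusted p = 0.018 in edgeR over 18102 genes). Of those genes 63.8% passed, 32% as higher and 31.8% as lower in H1299, so a difference of this kind between the lines was common. The ranges overlapped, since library 1-2 of H1299 (12.2 CPM) lay under library 1-1 of A549 (13.1 CPM). The call for MGMT was lost with the 6 empty-vector libraries alone (adjusted p = 0.0648), in batch 2 alone (0.116), without Ctr 2-2 of A549 (0.0676), without Ctr 1-1 of H1299 (0.0633) and without Ctr 2-2 of H1299 (0.0907).

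Ordered by mean level, the 8 groups ran H1299 K3Q, H1299 Ctr, A549 Ctr, A549 K3R, A549 K3Q, A549 WT, H1299 K3R and H1299 WT. Neighbours in this order overlapped in every case but 1: the lowest A549 WT library (8.44 CPM) lay above the highest H1299 K3R library (6.43 CPM). The H1299 groups thus lay on both sides of all A549 groups. Averaged over the 12 libraries of a line, MGMT was at 10.1 CPM in A549 and 10.9 CPM in H1299, above 40.0% and 44.0% of the genes tested.

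No change of MGMT with the biological replicate was detected. Library 2-2 against 1-2 over the constructs gave a log2 difference of 0.08 ± 0.12 (SE, adjusted p = 0.691) in A549 and 0.08 ± 0.18 (adjusted p = 0.786) in H1299, by the edgeR quasi-likelihood test with construct and library number as terms. The intervals ran from -0.16 to 0.31 and from -0.26 to 0.43, and without the K3Q libraries the H1299 value was 0.36. Of all genes tested, 14.3% passed in A549 and 16.3% in H1299 in that comparison. The relative SD between libraries of a group was 7.52% to 20.6%, and counting alone would give 5.53% to 9.51%. Counts of 85 to 433 reads a library thus left the spread between libraries above counting error in every group but A549 WT, where it was 7.52% against 8.3%.

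SIRT6 level was not matched between the groups, and the data are set side by side here. In H1299 the K3Q libraries held 14062, 10298 and 13428 CPM of SIRT6 (12596 ± 2015, SD, n = 3). The WT libraries held 2626, 2307 and 6319 CPM, and the K3R libraries 4025, 2589 and 5677 CPM. K3Q exceeded WT by 3.43-fold (log2 1.78 ± 0.35 SE, adjusted p = 0.0183, edgeR quasi-likelihood test). Against K3R the difference was 1.66 ± 0.35 and did not pass (adjusted p = 0.0592), although every K3Q library exceeded every WT and K3R library. MGMT in K3Q, where SIRT6 was highest, was at the level of the empty vector, where SIRT6 was at 36.8 ± 5.33 CPM (SD, n = 3). Level and mutation changed together between K3Q and the other constructs and cannot be told apart in these libraries.

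In WT, the library with the most SIRT6 (2-2, 6319 CPM) also had the most MGMT (6.31 CPM), and the one with the least SIRT6 (1-2) had the least MGMT. In K3R the library with the most SIRT6 (2-2, 5677 CPM) also had the most MGMT (6.43 CPM). The K3R library with the least SIRT6 (1-2, 2589 CPM) did not have the least MGMT, which was in 1-1 (4.94 CPM). In K3Q the library with the least SIRT6 (1-2, 10298 CPM) had the most MGMT (19.5 CPM). The empty-vector libraries 1-1, 2-2 and 1-2 ran in the same order for SIRT6 (42.6, 35.7 and 32.1 CPM) and MGMT (18.3, 17.2 and 12.2 CPM). These orders were not tested. In A549 SIRT6 averaged 2380 ± 814 CPM in WT, 2443 ± 994 in K3R and 1682 ± 118 in K3Q (SD, n = 3). The A549 WT library 2-2 held 3007 CPM of SIRT6, more than H1299 WT libraries 1-1 and 1-2, with 8.44 CPM of MGMT. Mitochondrially encoded transcripts took 2.47% to 3.1% of counts in H1299 WT and 2.22% to 3.22% in H1299 K3Q, so these ranges overlapped.

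**Figure D2:**
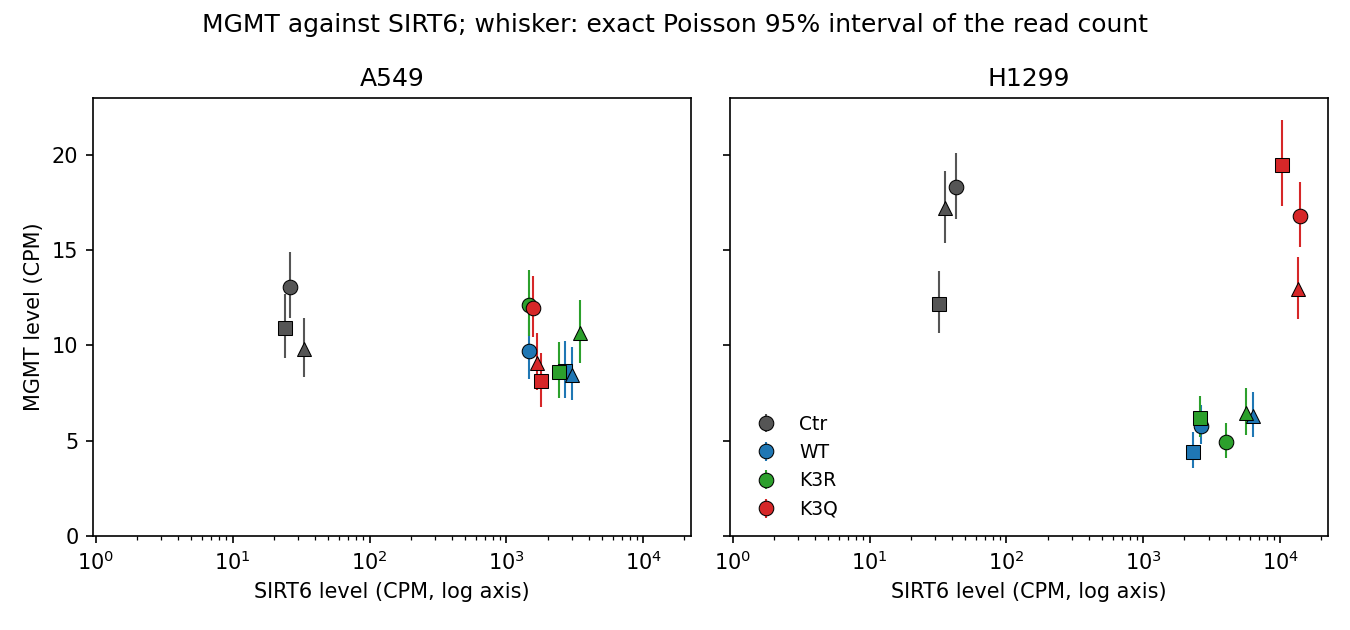
MGMT level (vertical axis, CPM) against SIRT6 level (horizontal log axis, CPM) in each library of A549 (left) and H1299 (right). Colours are constructs, symbol shapes are libraries 1-1 (circle), 1-2 (square) and 2-2 (triangle), and whiskers are exact Poisson 95% intervals of the MGMT count, which cover counting error only. In H1299 the 3 K3Q libraries lie at 10298 CPM of SIRT6 or more and level with Ctr, above the WT and K3R libraries.

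Genes that work with MGMT were taken from 5 lists with 54 genes besides MGMT, of which 53 were measured in both lines (DNMT3L was not). In no H1299 comparison of a construct with the empty vector did a listed gene pass: 0 of 53 for WT, K3R and K3Q (edgeR quasi-likelihood test), with 6, 6 and 4 at an unadjusted p under 0.05 and 1, 2 and 0 by DESeq2. Over all genes 4.05%, 3.25% and 0.0615% passed in these 3 comparisons. No share of all genes at an unadjusted p under 0.05 was taken, here or below, so nothing is read from those counts. The medians of the listed genes, -0.03, 0.01 and 0.03 on the log2 scale, lay near those of all genes, -0.01, -0.01 and -0.01. MGMT, at -1.55 in WT, lay outside the range of the listed genes, -0.62 to 0.36. MGMT was chosen over these libraries and the listed genes were not, so nothing is read from that. With the library number as a block, which pairs the H1299 libraries, 5 of 53 listed genes passed for WT and 4 of 53 for K3R. Of all 16262 genes, 1585 and 1392 passed with that block, so the listed genes passed about as often as all genes did. By DESeq2, 1057 and 921 of all genes passed for WT and K3R. With biological replicate 1 summed, in batch 2 alone and without a batch term, 0 listed genes passed for either. With the block, the DNA ligase gene LIG3 fell in both (-0.41 and -0.39). UNG (-0.39) fell and ASCC1 (0.34) rose in WT, and APEX1 (0.34) and MBD3 (0.36) rose in K3R.

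In K3Q against WT in H1299, 1 of 53 listed genes passed, or 1.89%, against 3.46% of all genes. That gene was NR3C1, the glucocorticoid receptor, which fell by 0.50 ± 0.11 (SE) on the log2 scale, from 57.4 ± 7.31 to 40.1 ± 8.69 CPM (SD, n = 3), with an adjusted p = 0.0265 in the edgeR quasi-likelihood test. The call was lost without K3Q 1-1 (adjusted p = 0.169), K3Q 1-2 (0.122), WT 1-1 (0.119) or WT 2-2 (0.0909), and in batch 2 alone (0.373). Against K3R NR3C1 stood at -0.43 ± 0.11 and did not pass (adjusted p = 0.102), while with the library number as a block it did (0.0247). The block gave 6 of 53 listed genes for K3Q against WT: PARP1, UNG and LIG1 rose, and NR3C1, ASCC3 and HIF1A fell. DESeq2 gave 4. Of all 16262 genes, 1946 passed with the block and 1123 by DESeq2, so the listed genes passed about as often as all genes did.

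By role, none of 6 direct-reversal genes passed in K3Q against WT in H1299 (edgeR quasi-likelihood test, 2 with an unadjusted p under 0.05). Of all genes, 3.46% passed there. ASCC3, the helicase that opens DNA for the demethylase ALKBH3, stood at -0.42 ± 0.12 (adjusted p = 0.0801) and passed by DESeq2 (0.03). ALKBH2, a DNA demethylase, stood at 0.30 ± 0.13 (0.214). None of 12 base excision repair genes passed, with 4 at an unadjusted p under 0.05. The replicative ligase LIG1 stood at 0.42 ± 0.12 (adjusted p = 0.0805, and 0.034 by DESeq2), and the uracil glycosylase UNG at 0.42 ± 0.15 (0.146).

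None of 9 mismatch repair genes passed in that comparison, where 3.46% of all genes did, with none under 0.05 unadjusted. Mismatch repair is what turns an unrepaired O6-methylguanine into a lethal lesion. The lowest p there were those of MLH3, at -0.24 ± 0.13 (adjusted p = 0.351, edgeR quasi-likelihood test), and of the sliding clamp PCNA, at 0.19 ± 0.13 (0.455). Of 13 promoter factors NR3C1 passed, with 4 under 0.05 unadjusted. None of 13 DNA methylation genes passed, with 2 under 0.05 unadjusted, among them the glycosylase MBD4 at -0.29 ± 0.11 (0.167). DESeq2 passed no mismatch repair or DNA methylation gene here.

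For K3Q against K3R in H1299, 0 of 53 listed genes passed (edgeR quasi-likelihood test; 3 at an unadjusted p under 0.05, and 1 by DESeq2 and with the block, NR3C1), against 0.449% of all genes. Of all 16262 genes, 337 passed by DESeq2 and 526 with the block. For K3R against WT, 0 of 53 passed in H1299 and 0 of 53 in A549, with 1 and 0 at an unadjusted p under 0.05 and 0 by DESeq2 in both. Over all genes 0% passed in either line for that comparison.

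In A549, 1 of 53 listed genes, or 1.89%, passed for K3R against the empty vector, against 0.118% of all genes. HIF1A, the oxygen-regulated transcription factor gene, fell from 240 ± 47.1 to 168 ± 34.1 CPM (SD, n = 3; log2 -0.52 ± 0.08 SE, adjusted p = 0.0435, edgeR quasi-likelihood test). It stood at -0.47 ± 0.08 for WT (0.0617) and at -0.52 ± 0.08 for K3Q (0.0652). The K3R call was lost without any 1 of the 12 libraries (adjusted p from 0.0664 without Ctr 2-2 to 0.234 without K3R 1-1), and in all 3 comparisons the gene passed by DESeq2. No listed gene passed for WT or K3Q against Ctr, or for K3Q against WT or K3R (edgeR quasi-likelihood test; 4, 5, 4 and 1 at an unadjusted p under 0.05, and 1, 1, 0 and 0 by DESeq2). Over all genes 0.105%, 0.0248%, 0.0062% and 0.0062% passed in these 4 comparisons.

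**Figure D3:**
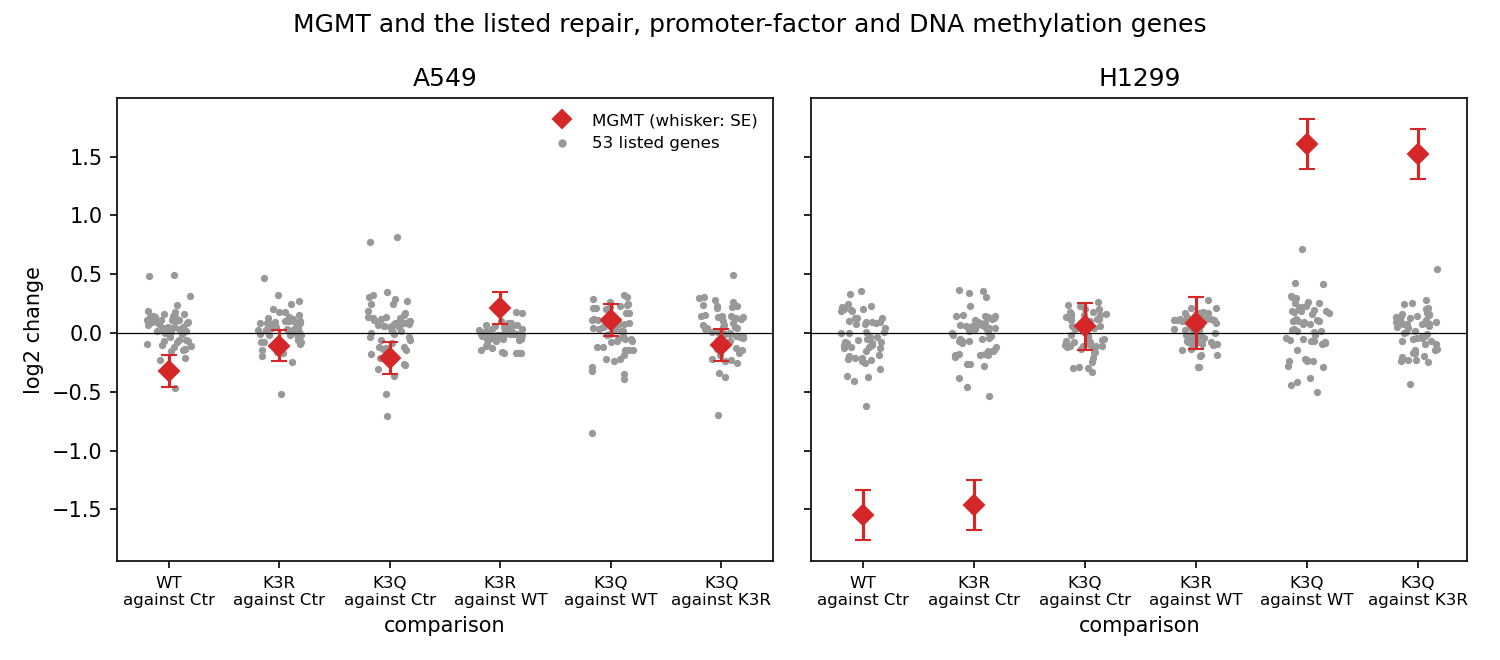
Log2 change (vertical axis) of MGMT (diamonds, whiskers are SE) and of 53 listed genes of alkylation repair, mismatch repair, promoter factors and DNA methylation (grey points) in 6 comparisons of A549 (left) and of H1299 (right). MGMT lies at -1.55 and -1.46 for WT and K3R against Ctr in H1299, where the listed genes stay between -0.62 and 0.36. MGMT was chosen over these libraries and the listed genes were not, so nothing is read from that.

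Between the lines the listed genes passed about as often as all genes did. With the empty vector 32 of 53 listed genes, or 60.4%, passed between H1299 and A549 (12 higher and 20 lower in H1299, edgeR quasi-likelihood test), against 63.8% of all genes. Of the direct-reversal genes, ALKBH1 was 2.05-fold higher in H1299 and ASCC1 2.06-fold lower, with adjusted p of 7.65e-07 and 1.61e-07, and ALKBH2 was 1.60-fold lower (0.00368). The base excision scaffold XRCC1 was 2.19-fold higher, and the endonuclease APEX1 was 2.02-fold lower.

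PCNA was 2.12-fold lower in H1299, and of 9 mismatch repair genes 3 passed as lower and none as higher, where 31.8% of all genes passed as lower and 32% as higher. Of the promoter factors, NR3C1 was 4.13-fold lower (49.4 ± 6.15 against 210 ± 34.4 CPM, SD, n = 3), HIF1A 2.49-fold lower and the coactivator EP300 2.46-fold lower. Of the DNA methylation genes, 8 of 13 passed as higher in H1299 and 2 as lower, beside the same 32% and 31.8% of all genes: the maintenance methyltransferase DNMT1 by 2.21-fold (434 ± 28.7 against 203 ± 66.6 CPM, SD, n = 3) and the demethylating dioxygenase TET2 by 1.71-fold higher, and the methyl-CpG reader ZBTB4 by 2.26-fold lower.

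Some listed genes differed between biological replicates. Between libraries 2-2 and 1-2, 15 of 53 passed in A549 (28.3%, 4 higher and 11 lower, against 14.3% of all genes) and 11 of 53 in H1299 (20.8%, 4 higher and 7 lower, against 16.3%). Of 9 mismatch repair genes 3 passed as lower in each line, MSH6 and EXO1 among them. The shares of all genes above are for either direction, and none was taken for lower alone, so nothing is read from that count. Library 2-2 against 1-2 gave -0.59 for MSH6 and -0.80 for EXO1 in A549 (adjusted p = 0.0326 for both) and -0.42 and -0.37 in H1299 (0.00202 and 0.00926, edgeR quasi-likelihood test). MGMT, at 0.08 in both lines, had no detectable change there.

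Of the genes beside MGMT on chromosome 10, none that was tested passed as lower in H1299 WT or K3R. EBF3, a transcription factor gene of neural development that lies 67.3 kb beyond the end of MGMT, was the nearest tested gene. It stood at 1.46 ± 0.39 CPM with the empty vector, 3.39 ± 1.03 with WT, 4.18 ± 1.31 with K3R and 3.56 ± 0.95 with K3Q (SD, n = 3). It was thus higher where MGMT was lower, and also in K3Q, where MGMT was not. The log2 changes of EBF3 were 1.14 for WT (adjusted p = 0.0645, and 0.0309 with the library number as a block), 1.44 for K3R (0.0256) and 1.25 for K3Q (0.221, edgeR quasi-likelihood test). By DESeq2, EBF3 passed in WT (adjusted p = 0.0183) and in K3Q (0.0351). The K3R call in edgeR was lost without Ctr 1-2 (0.104), Ctr 2-2 (0.11), K3R 1-1 (0.0849) or K3R 1-2 (0.0705). It was also lost in one fit of 24 libraries (0.0722), in batch 2 alone (0.0899) and with biological replicate 1 summed (0.1). EBF3 was not tested in A549, where its level was at most 0.644 CPM.

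The redox gene GLRX3, 368.4 kb beyond MGMT, stood at 0.05, 0.15 and 0.18 for WT, K3R and K3Q against Ctr in H1299, and the phosphatase subunit gene PPP2R2D, 2132.6 kb away, at 0.08, 0.09 and 0.16. On the other side, the proliferation marker gene MKI67 stood at 0.30, 0.16 and 0.01, the phosphatase gene PTPRE at -0.22, -0.55 and -1.17, and the exchange factor gene DOCK1 at -0.07, -0.14 and 0.04. The metalloprotease gene ADAM12 stood at 0.62, 1.55 and 0.88 and FANK1 at 0.81, 1.43 and 0.93. Levels of PTPRE, ADAM12 and FANK1 in H1299 were low, with group means of 0.46 to 1.08, 0.86 to 2.71 and 0.37 to 1.01 CPM. None of these 7 genes passed against Ctr (edgeR quasi-likelihood test; lowest adjusted p = 0.0711, ADAM12 in K3R). C10orf143 and CTAGE7P, 252 and 338 kb beyond MGMT, were tested in A549 alone and did not pass there.

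**Figure D4:**
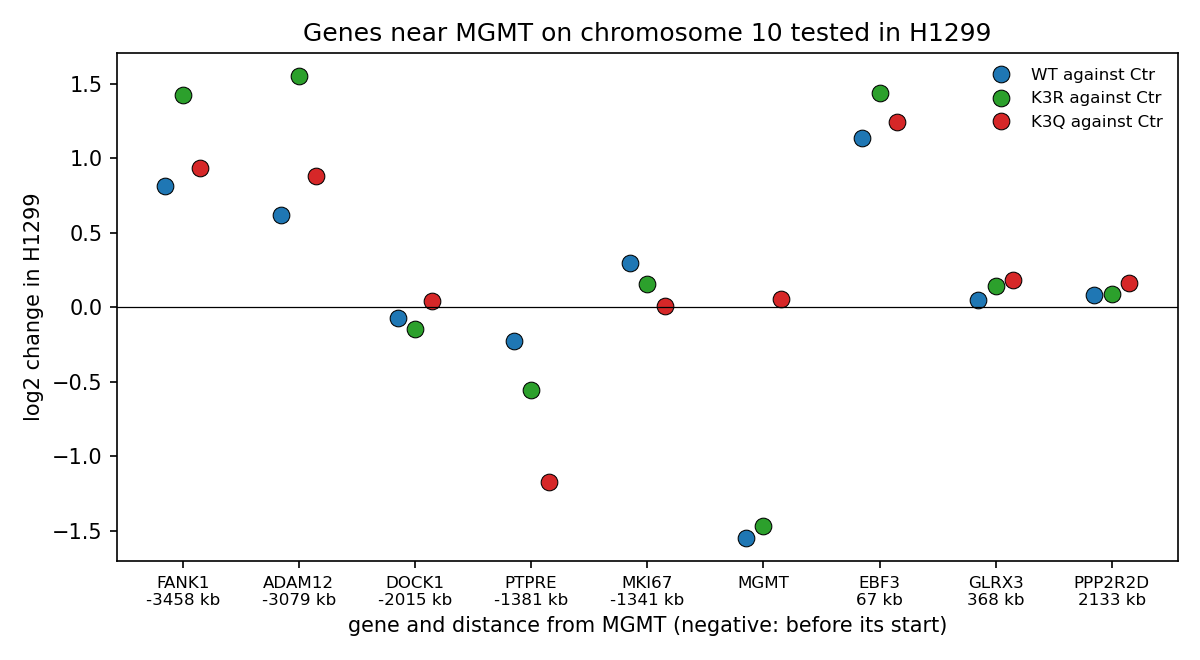
Log2 change against Ctr in H1299 (vertical axis) for WT, K3R and K3Q at MGMT and 8 genes near it that were tested in H1299 (5 before it and 3 after it), ordered along chromosome 10 with their distance from MGMT in kb. MGMT is at -1.55, -1.46 and 0.06, and the adjacent gene EBF3 at 1.14, 1.44 and 1.25. No SE is drawn, and FANK1, ADAM12 and PTPRE had group means of at most 2.71 CPM.

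The genes whose level ran most like MGMT were ranked by Pearson's r of log2 CPM over the 12 H1299 libraries, among 12443 genes with a mean log2 CPM of at least 1. The libraries share constructs, batches and depth, so r is a description here and carries no p. The highest were the kinase gene CDK20 (r = 0.95), the calcium-regulated transcription factor gene NFATC1 (0.93), the intraflagellar transport gene IFT27 (0.93), the laminin chain gene LAMC3 (0.93) and the lysosomal protease gene CTSF (0.92). CDK20 averaged 7.92 ± 1.68 CPM with Ctr, 2.98 ± 0.98 with WT, 3.28 ± 0.78 with K3R and 6.59 ± 1.44 with K3Q (SD, n = 3), so the groups high and low in MGMT were high and low here too. LAMC3 was at 11.4 ± 2.56, 4.67 ± 0.44, 4.34 ± 0.77 and 8.26 ± 1.07 CPM.

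Among the lowest r were those of the kinase gene STK26 (-0.95) and the phosphatase inhibitor gene PPP1R1C (-0.95). STK26 averaged 38.3 ± 4.23 CPM with Ctr, 61.9 ± 6.17 with WT, 63.2 ± 1.85 with K3R and 38.4 ± 1.58 with K3Q (SD, n = 3), high where MGMT was low. These genes were picked for their r over libraries in which MGMT itself splits into a high and a low set, so their own split in H1299 follows from the choice. In A549, which did not enter the choice, their r with MGMT ran from -0.34 to 0.69, with CTSF the highest.

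**Figure D5:**
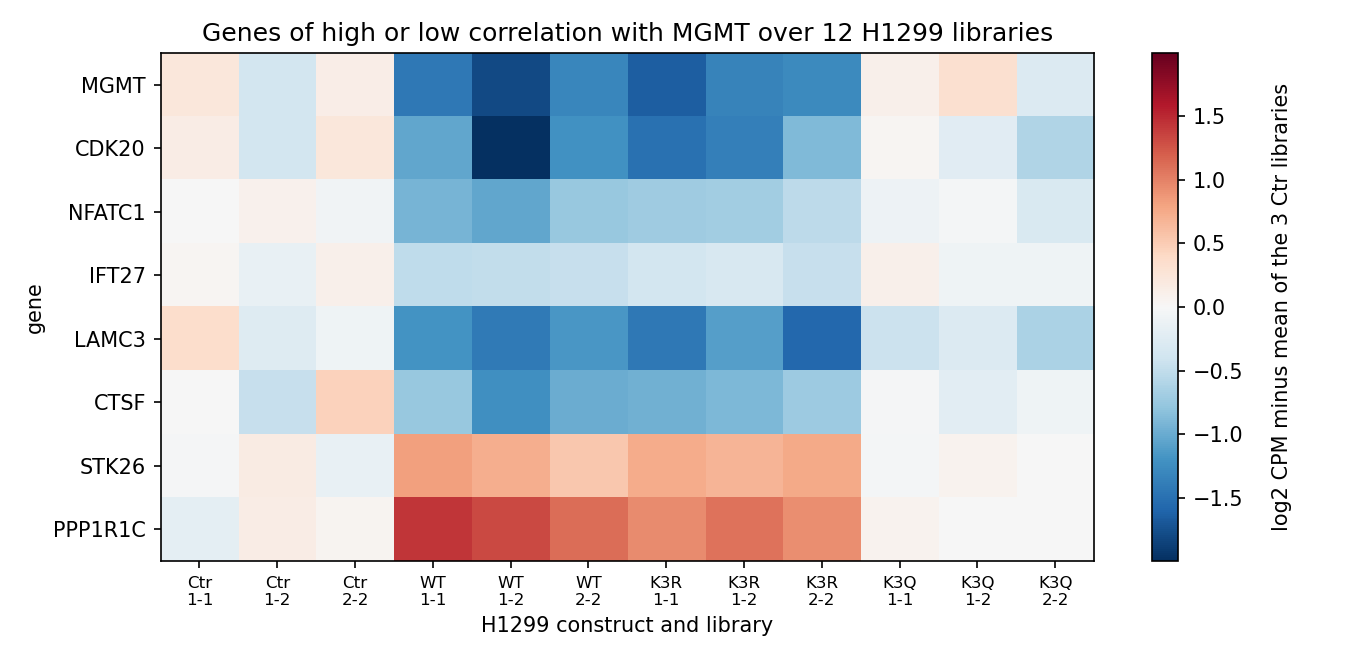
Log2 CPM less the mean of the 3 Ctr libraries (colour scale) for MGMT and 7 genes of high or low r with it, in the 12 H1299 libraries (columns). The 6 WT and K3R libraries are blue for MGMT, CDK20, NFATC1, IFT27, LAMC3 and CTSF and red for STK26 and PPP1R1C, and the K3Q libraries lie nearer to Ctr.

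In A549, where MGMT varied less, the genes of highest r over its 12 libraries were TBC1D2B (0.94), TMEM107 (0.93), SHLD1 (0.93), MAILR (0.92) and NUP62CL (0.92), among 12697 genes. The lowest were C9orf78 (-0.95), OGG1 (-0.93), a glycosylase gene of oxidised guanine, and TRIML2 (-0.92). None of these was among the genes named for H1299, and none separated Ctr and K3Q from WT and K3R in A549. Their r with MGMT in H1299 ran from -0.58 to 0.41.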

How the data were processed

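The deposited table holds unnormalised counts of reads per gene symbol for 24 libraries, 3 for each of 8 groups. Reads were processed with FastQC, cutadapt, STAR and featureCounts on GRCh38, per the submitters' processing notes. No version, strand setting or gene annotation is given in the sources used here. MGMT, the lists and the tests were chosen with earlier results of these data known.

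Each line was fitted on its 12 libraries (filterByExpr, TMM, edgeR 4.0.16 quasi-likelihood test in R 4.3.3) with construct and batch as terms. Lines were compared over 24 libraries, and 2-2 with 1-2 with library number in place of batch. P-values are Benjamini-Hochberg adjusted over all genes tested, with a threshold of 0.05. SE was taken as the size of the log2 change divided by the root of its F statistic. Intervals are 1.96 SE on each side, and Poisson intervals are exact at 95%. Log2 CPM used a prior count of 2. Symbols were joined to GENCODE 29, which may differ from the release used for counting. The procedure was tested on simulated data. A planned test of K3R against WT for MGMT is not reported, because those libraries chose the gene.

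Besides MGMT and SIRT6, the text names, per list, members that passed in H1299 K3Q against WT or K3R (or the 2 lowest p) and up to 3 passing elsewhere, the 5 nearest genes on each side that were tested in either line, and the 5 highest and 3 lowest r per line. Some genes that this rule or the block would name are not reported here. Listed genes named for passing with the block were chosen after their values were seen. Alternatives were no batch term, a replicate block, RLE, no filter, DESeq2 1.42.0, other sets of libraries, summed libraries and leaving out each library. Library numbers pair the samples in H1299, where deviations from group means at the same number correlated at 0.135 to 0.552 between constructs. In A549 K3Q 2-2 they correlated at 0.0568 to 0.118 and do not.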

Additional observations from a re-analysis of the deposited data

Results flagged for a closer look

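For MGMT, K3Q was above K3R in 3 of 3 H1299 libraries and below it in 3 of 3 A549 libraries. In A549 the steps were small: K3Q stood at 0.986, 0.943 and 0.854 of K3R at 1-1, 1-2 and 2-2. The fitted interval there, -0.37 to 0.16 on the log2 scale, included no difference. The mean log2 difference by library number was 1.59 higher in H1299 than in A549. The difference between the lines was not tested, since it chose the gene, and the A549 ranges overlapped. Groups of 3 libraries are too small for the check for a single outlying library.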

How the results depend on the processing

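The comparisons of MGMT stayed within the spread between replicates or on their side of the threshold under every alternative run, except H1299 Ctr against A549 Ctr. That log2 difference was 0.54 and lost its call with the 6 Ctr libraries alone (0.52), in batch 2 alone (0.51) and without a low-count filter (0.50). Leaving out single libraries gave 0.42 to 0.67. With the library number as a replicate block, MGMT in H1299 stood at -1.55 for WT and -1.46 for K3R against Ctr, and at 1.61 and 1.53 for K3Q against WT and K3R, and no MGMT call changed.

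Leaving out each library moved MGMT in H1299 within -1.71 to -1.42 (WT against Ctr), -1.63 to -1.30 (K3R against Ctr), 1.44 to 1.76 (K3Q against WT) and 1.36 to 1.68 (K3Q against K3R). Scaling by total counts gave 17.5, 5.93, 6.13 and 17.0 CPM for Ctr, WT, K3R and K3Q in H1299.

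Counts of listed genes called moved more. For H1299 K3Q against WT (1) they were 6 with the replicate block, 4 by DESeq2, 4 without a filter, and 0 without a batch term, in batch 2 alone and with biological replicate 1 summed; single libraries left out gave 0 to 3. For H1299 WT against Ctr (0) they were 5 with the block and 1 by DESeq2, without a filter, with RLE and in one fit of 24 libraries; 0 to 1 with a library left out. For H1299 K3R against Ctr (0) they were 4 with the block, 2 by DESeq2 and 1 without a filter, with RLE and in one fit; 0 to 2 with a library left out. For H1299 K3Q against K3R (0) they were 1 with the block, by DESeq2 and without a filter.

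In A549, K3R against Ctr (1) gave 0 in one fit, in batch 2 alone, with biological replicate 1 summed, without a batch term and without any 1 library. K3Q against Ctr (0) gave 4 without a filter and 1 by DESeq2 and with the block. WT against Ctr (0) gave 1 in each of those 3 settings, and K3Q against WT and K3R (0) gave 1 without a filter. The cause was not tested. The number of all genes called in H1299 K3Q against WT was 563, against 1946 with the block, 1123 by DESeq2, 1258 without a filter, 188 without a batch term, 25 with biological replicate 1 summed and 8 in batch 2 alone. In the same order it was 659, 1585, 1057, 1301, 409, 93 and 90 for WT against Ctr, 528, 1392, 921, 1276, 330, 44 and 20 for K3R against Ctr, and 73, 526, 337, 650, 33, 0 and 0 for K3Q against K3R.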
